A study of Mus musculus with 12 samples.

Results

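The genes described here encode the nuclear subunits of the mitochondrial respiratory chain and of ATP synthase. They were chosen by name alone, from the genes that 1 or more probe sets of the array read under a single annotated symbol. Every gene was taken whose symbol has the form of an Nduf, Sdh, Uqcr, Cox4 to Cox8 or Atp5 subunit gene. This gave 80 of the 18193 genes so read, on 163 probe sets: 34 genes of complex I, 4 of complex II, 8 of complex III, 17 of complex IV and 17 of complex V. Each gene was read by the probe set with the highest mean over the 12 arrays. Some of these have names ending in _s_at, as for Atp5d and Atp5e, or in _x_at, as for Atp5k and Cox5b. Whether they also match transcripts of other genes was not checked. A gene was tested if, in 2 or more arrays, its probe set was brighter than the array's median. This held for 77 of the 80 and for 12516 genes in all. The 3 left out were Ndufb4, Cox7b2 and Cox7c, whose probe sets were dim: Ndufb4 lay between 4.78 and 7.18, Cox7b2 between 3.93 and 4.45 and Cox7c between 4.81 and 8.17 on the log2 scale.

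Complexes I to IV sit in the inner mitochondrial membrane and pass electrons taken from NADH and succinate to oxygen, and complexes I, III and IV pump protons as they do so. Complex V, the ATP synthase, lets the protons flow back and makes ATP. Most subunits are encoded in the nucleus and imported, and the rest are encoded by mitochondrial DNA. Bone-forming cells and their progenitors draw on both glycolysis and respiration.

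The series asks what induction of JUN, a transcription factor of the AP-1 family, does to osteoprogenitors of mouse bone. SSC, CSP and Thy are 3 populations sorted by flow cytometry from limb bones, skull cap, scapula, vertebrae and ribs, and each gave 2 arrays labelled JUN and 2 labelled -JUN; the series' text also uses the names BCSP and Thy+. All mice were JUN inducible mice on a regular diet. JUN was induced in pups by doxycycline in the drinking water of the mother and cells were sorted after 2 days; -JUN is read here as the arm without induction, and the labels give neither whether those pups got doxycycline, nor age, sex or the promoter that drives the transgene. As the titles are read here, the 12 arrays came from 5 mice. Mouse 4 and mouse 7 gave JUN replicates 1 and 2 of every population, and mouse 3 gave -JUN replicate 1 of every population. Mouse 3b gave -JUN replicate 2 of CSP and Thy, and mouse 10 gave -JUN replicate 3 of SSC. Arrays are taken as from 1 animal where their titles give the same mouse number. The labels do not settle this for mice 3 and 7. Mouse 3b is taken as an animal other than mouse 3, which the labels do not settle either. The titles of 3 of the 4 SSC arrays, all but JUN replicate 1, carry a date that no other title does, and the labels do not say what it marks. JUN and the mouse that carried it cannot be told apart, and a p-value here measures only how far these samples spread. In sorted bulk RNA, fewer cells of a type and less RNA per cell cannot be told apart either.

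Of the genes of the sort antigens, Thy1 and Eng separated the populations. Thy1, the surface antigen that gives the Thy population its name, lay between 12.80 and 13.30 in the 4 Thy arrays and between 7.28 and 9.63 in the other 8. Eng, the endoglin gene, lay between 7.95 and 8.24 in SSC and between 9.07 and 10.40 in CSP and Thy. Itgav, Cd200, Enpep and Tek overlapped between populations; Cd200 lay between 9.91 and 10.48 in SSC, 8.27 and 10.67 in CSP, and 8.80 and 10.35 in Thy. Ptprc, the pan-leukocyte gene, was above the array's median in 0 arrays. Jun itself, on the probe set used, read 13.18 and 12.13 in SSC JUN, against 12.60 and 12.06 in SSC -JUN. It read 12.92 and 12.82 in CSP JUN, against 13.37 and 13.24 in CSP -JUN, and 13.03 and 12.90 in Thy JUN, against 12.81 and 13.65 in Thy -JUN. Its difference averaged over the populations was -0.13 ± 0.23 (SE), and the labels do not say whether this probe set reads the induced copy. The spiked poly-A controls averaged 8.43 and 9.10 in the SSC -JUN arrays and 9.91 to 12.23 in the other 10. The 18S ribosomal RNA control read 14.83 and 14.73 in the SSC -JUN arrays and 15.85 to 15.99 elsewhere. The JUN comparison in SSC thus sets arrays against each other that also differ in these controls, whose part in its values was not tested. In that comparison JUN replicate 1 is the only array without the title date, and both -JUN arrays carry it. JUN in SSC, and the average that includes it, are therefore partly tied to the date.

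No subunit gene passed the test for JUN. With limma and Benjamini-Hochberg adjustment over all genes, 0 of 77 genes passed an adjusted p of 0.05 in any population or in the average of the 3 differences, and the background was the same: 0% of the 12516 genes passed in each of these 4 comparisons. At an unadjusted p under 0.05 there were 0 subunit genes in SSC, 0 in CSP, 0 in Thy and 1 in the average, where all genes gave 6.5%, 2.3%, 3.04% and 12.5%. These unadjusted counts changed with the fit, for subunit genes and for all genes, and are not a stable trait of the subunit genes. The fit draws the spread of each gene toward that of all genes, which is larger, as given further on. The intervals describe the spread of these arrays and do not bound what a larger set of mice could show. For the average of the 3 differences the fit counts arrays of the same mouse as independent. As given further on, mouse 7 was above mouse 4 in all 3 populations for 46.8% of the 77 genes, against 12.3% of all genes. Mice 3b and 3 stood in opposite order in CSP and Thy. How far this alters the width of the intervals of the average was not tested. The 95% confidence interval of the log2 difference lay within -1 and 1, that is within a doubling or a halving, for 49 of the 77 genes in SSC, 34 in CSP, 54 in Thy and 75 in the average.

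The direction of the differences was uneven between populations. In CSP 70 of 77 subunit genes had the higher mean in JUN, with a median log2 difference of 0.25, where 57% of all genes were higher and their median was 0.07. In Thy 51 of 77 were higher with a median of 0.09, against 53.6% of all genes and a median of 0.04. In SSC 36 of 77 were higher with a median of -0.02, against 56.3% of all genes and a median of 0.08. Both JUN arrays lay above both -JUN arrays for 40 subunit genes in CSP, 20 in Thy and 15 in SSC, where this held for 19.3%, 17.9% and 22.7% of all genes. They lay below both for 1, 1 and 11 subunit genes, where this held for 11.9%, 10.8% and 15.7% of all genes. These counts describe genes that vary together, as given further on, and are not independent observations. Whether JUN acted differently in the 3 populations was tested by an interaction, for which 0 subunit genes and 0% of all genes passed, with 0 subunit genes and 1.15% of all genes at an unadjusted p under 0.05.

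The mean over the 77 genes was 12.10 and 12.39 in the CSP JUN arrays, against 11.86 and 12.08 in the CSP -JUN arrays. It was 12.11 and 12.27 in Thy JUN, against 12.24 and 11.97 in Thy -JUN, and 12.13 and 12.41 in SSC JUN, against 12.24 and 12.36 in SSC -JUN. The arms overlapped in SSC and Thy. In CSP they did not overlap, but the lower JUN array, from mouse 4, was nearly level with the higher -JUN array. Muscle markers lay the same way in CSP and Thy: all 8 measured of the 11 had the higher mean in JUN in both populations, with medians of 0.71 and 0.66. The mean of the 11 markers was 8.31 and 9.21 in CSP JUN, against 8.13 and 8.16 in CSP -JUN, and 8.80 and 8.72 in Thy JUN, against 8.37 and 7.99 in Thy -JUN. Muscle is rich in mitochondria, and the part of these markers in the subunit values was not tested. In SSC, 4 of the 8 were higher in JUN. Chondrocyte markers, 9 genes, averaged 13.21 in SSC JUN replicate 1, 12.81 in CSP JUN replicate 1 and 12.78 in CSP -JUN replicate 2, against 8.76 to 10.58 in the other 9 arrays. Other marker lists also lay to one side, as far as measured. Neutrophil markers were higher in CSP JUN for 4 of 4 (median 0.71). Adipocyte markers were lower in JUN for 4 of 4 in SSC (median -1.46), 3 of 4 in CSP (-0.32) and 4 of 4 in Thy (-0.68), and Schwann cell markers for 3 of 3 in Thy (-1.55). The part of these markers in the subunit values was not tested either.

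**Figure D1:**
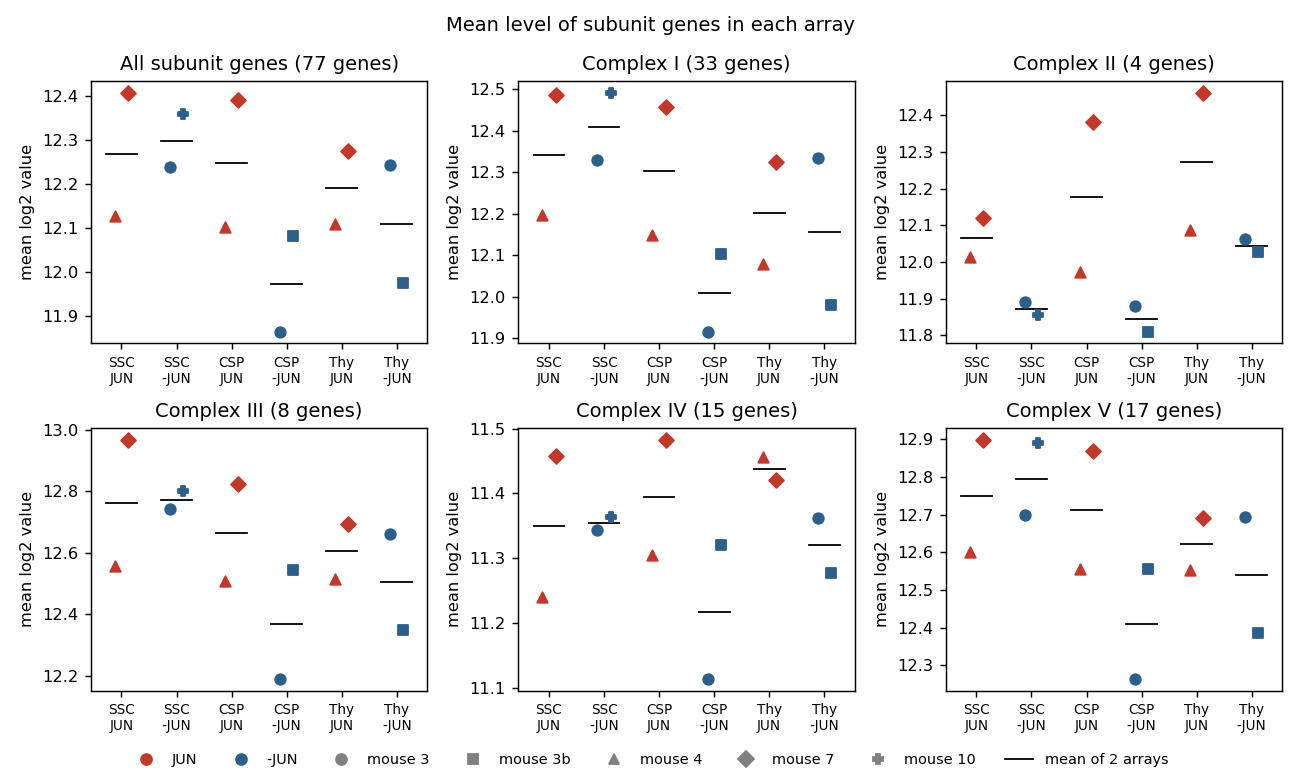
Mean log2 value over the tested subunit genes of all complexes and of each complex (vertical axes, which differ between panels and do not start at 0) in each of the 12 arrays, by population and arm (horizontal axes); symbols give the mouse and bars the mean of 2 arrays. Mouse 7 lies above mouse 4 in each JUN group except complex IV in Thy, and only for complex II do both JUN arrays lie above both -JUN arrays in all 3 populations.

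**Figure D2:**
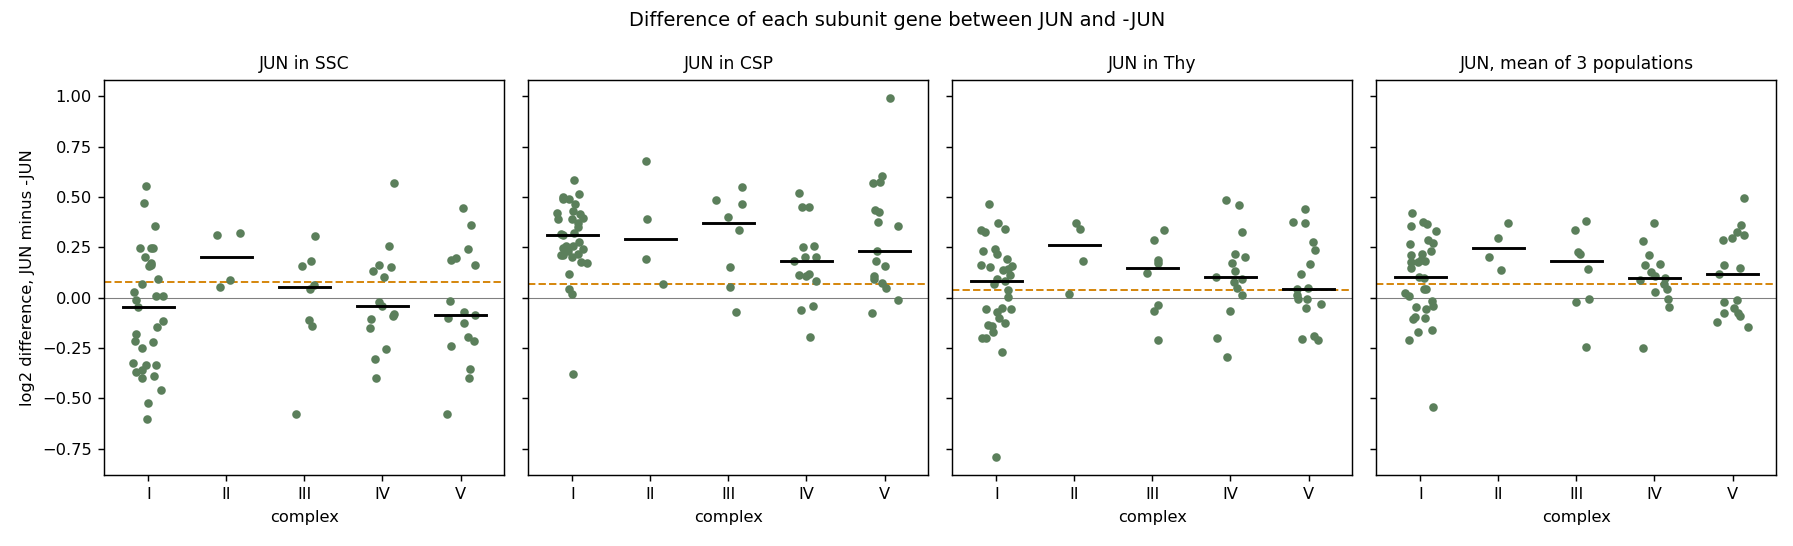
Log2 difference of JUN minus -JUN for each tested subunit gene (points), by complex, in SSC, CSP, Thy and the mean of the 3; black bars give the median of a complex, the dashed line the median of all 12516 genes and the grey line 0. Complex medians in CSP all lie between 0.18 and 0.37, above the all-gene median of 0.07, while in SSC 3 of the 5 lie below 0.

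Complex I oxidises NADH. Its flavin and iron-sulfur subunits form the arm that reaches into the matrix, and the Nduf b and c subunits lie in the membrane arm. Of its 33 tested genes 32 were higher in CSP JUN, 20 in Thy JUN and 15 in SSC JUN, with medians of 0.31, 0.09 and -0.05. Ndufv1, which encodes the subunit that binds NADH and the flavin, read 12.58 and 13.22 in CSP JUN, against 12.31 and 12.66 in CSP -JUN. It read 13.44 and 13.16 in Thy JUN, against 13.07 and 12.79 in Thy -JUN, and 13.00 and 12.87 in SSC JUN, against 12.72 and 12.20 in SSC -JUN. Both JUN arrays were above both -JUN arrays in Thy and in SSC and 1 of 2 was in CSP. Its average difference was 0.42 ± 0.19 (SE; adjusted p = 0.396).

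Ndufb7, a small membrane-arm subunit, was read at 12.26 and 12.76 in CSP JUN, against 11.70 and 12.14 in CSP -JUN. The values were 12.78 and 12.69 in Thy JUN, against 12.48 and 12.05 in Thy -JUN, and 12.42 and 12.56 in SSC JUN, against 12.38 and 12.46 in SSC -JUN. The arms did not overlap in CSP and Thy, and overlapped in SSC. The differences were 0.59 ± 0.31 in CSP, 0.46 ± 0.31 in Thy and 0.07 in SSC, none of which passed (adjusted p = 0.995 and 0.985 in CSP and Thy).

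Ndufb1, another membrane-arm subunit, had the lowest p of the complex in SSC. It read 8.99 and 8.90 in SSC JUN, against 8.48 and 8.31 in SSC -JUN, a difference of 0.55 ± 0.29 (adjusted p = 0.690) without overlap. In CSP it read 8.45 and 8.83 in JUN, against 8.24 and 8.26 in -JUN, again without overlap, and in Thy 8.93 and 8.38 in JUN, against 8.52 and 8.47 in -JUN, where the arms overlapped.

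Ndufs1, the largest iron-sulfur subunit of the matrix arm, lay the other way. Thy JUN arrays read 9.39 and 11.31, against 11.27 and 11.02 in Thy -JUN. CSP JUN arrays read 11.12 and 10.56, against 11.59 and 10.85 in CSP -JUN, and SSC JUN arrays 10.94 and 10.88, against 11.26 and 11.49 in SSC -JUN. Its average difference was -0.54 ± 0.31 (adjusted p = 0.427), and in Thy, where the difference was -0.79, JUN replicate 1 was far below the rest while JUN replicate 2 was the highest of the 4 arrays. It was the only complex I gene lower in CSP JUN, by -0.38 ± 0.54.

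In SSC the lowest p among lower genes of complex I belonged to Ndufc2, an accessory subunit, at 13.15 and 13.36 in JUN, against 13.64 and 13.68 in -JUN (difference -0.40 ± 0.28, adjusted p = 0.702). Ndufs4, an accessory subunit whose loss in mice gives an encephalopathy like Leigh syndrome, differed by -0.60 in SSC, the lowest value of the complex there, with 11.86 and 12.94 in JUN, against 12.72 and 13.28 in -JUN. Its arms overlapped, and its difference was 0.04 in CSP and -0.07 in Thy.

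Complex II, succinate dehydrogenase, joins the citric acid cycle to the chain and is encoded wholly in the nucleus. All 4 of its genes had the higher mean in JUN in every population, and 0 of the 4 passed. The share of all genes that were higher in every population was not counted. In single populations 56.3% of all genes were higher in SSC, 57% in CSP and 53.6% in Thy. The smallest of the 4 differences was 0.05 in SSC, 0.07 in CSP and 0.02 in Thy. The median difference was 0.29 in CSP, 0.26 in Thy and 0.20 in SSC. The mean over the 4 genes was 12.01 and 12.12 in SSC JUN, against 11.89 and 11.86 in SSC -JUN. It was 11.97 and 12.38 in CSP JUN, against 11.88 and 11.81 in CSP -JUN, and 12.09 and 12.46 in Thy JUN, against 12.06 and 12.03 in Thy -JUN. The arms did not overlap in any population for this mean, although JUN replicate 1 stood close to the -JUN arrays in CSP and Thy.

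Sdhc, a membrane anchor of the complex that takes part in binding ubiquinone, had the lowest p of all subunit genes in CSP. It read 11.69 and 12.40 in CSP JUN, against 11.34 and 11.39 in CSP -JUN, a difference of 0.68 ± 0.31 (95% interval -0.01 to 1.37, unadjusted p = 0.0523, adjusted p = 0.995). Thy JUN arrays read 12.14 and 12.20, against 11.74 and 11.91 in Thy -JUN, and SSC JUN arrays 11.71 and 11.80, against 11.86 and 11.47 in SSC -JUN. The arms were apart in CSP and Thy only. Sdhb, the iron-sulfur subunit, read 12.34 and 12.96 in CSP JUN, against 12.26 and 12.26 in CSP -JUN, with an average difference of 0.29 over the populations. Sdhd, the other anchor, read 11.51 and 12.07 in Thy JUN, against 11.36 and 11.47 in Thy -JUN, a difference of 0.37 ± 0.32, and its average was 0.20. Sdha, the flavoprotein that oxidises succinate, read 12.42 and 11.85 in SSC JUN, against 11.91 and 11.72 in SSC -JUN, and its average difference was 0.14.

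Complex III passes electrons from ubiquinol to cytochrome c. Of its 8 genes 5 were higher in SSC JUN, 7 in CSP JUN and 5 in Thy JUN, with medians of 0.05, 0.37 and 0.15; the mean in SSC was -0.01. Uqcrc1, a core protein of the matrix side, read 13.18 and 13.62 in CSP JUN, against 12.44 and 13.27 in CSP -JUN. It read 13.76 and 13.58 in Thy JUN, against 13.48 and 13.30 in Thy -JUN, and 13.35 and 13.57 in SSC JUN, against 13.36 and 12.95 in SSC -JUN. Only in Thy were the arms apart, and the average difference was 0.38 ± 0.20 (adjusted p = 0.414).

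Uqcr11, a small subunit of the complex, had an average difference of 0.34 ± 0.18, with 11.57 and 11.31 in Thy JUN, against 11.26 and 10.94 in Thy -JUN. Uqcrb, which takes part in binding ubiquinone, lay the other way in SSC, with 13.10 and 13.86 in JUN, against 13.87 and 14.25 in -JUN (difference -0.58 ± 0.35, adjusted p = 0.690). Its low value came from JUN replicate 1, and JUN replicate 2 was level with the lower -JUN array. Uqcrfs1, the Rieske iron-sulfur protein, differed by -0.07 ± 0.36 in CSP, and there it was the only gene of the complex lower in JUN.

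Complex IV, cytochrome c oxidase, reduces oxygen. Of its 15 tested genes 6 were higher in SSC JUN, 12 in CSP JUN and 12 in Thy JUN, with medians of -0.04, 0.18 and 0.10. Cox4i1, the widely expressed form of the largest nuclear subunit, read 13.96 and 14.30 in CSP JUN, against 13.65 and 14.10 in CSP -JUN, and its average difference was 0.16. Cox6c read 12.16 and 13.16 in Thy JUN, against 13.03 and 12.87 in Thy -JUN (difference -0.29 ± 0.37), again with JUN replicate 1 apart from the other 3 arrays. Its average was -0.25 ± 0.21 (adjusted p = 0.559). Cox7a2, the widely expressed form of its subunit, read 14.41 and 14.62 in SSC JUN, against 14.70 and 14.93 in SSC -JUN, and 14.58 and 14.46 in CSP JUN, against 14.38 and 14.42 in CSP -JUN. Its arms were apart in both populations, with JUN lower in SSC and higher in CSP; the interaction over the 3 populations did not pass for any subunit gene.

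Complex V has a catalytic head in the matrix, built of alpha and beta subunits on a central stalk of gamma, delta and epsilon, and a ring of c subunits in the membrane. Of its 17 genes 6 were higher in SSC JUN, 15 in CSP JUN and 10 in Thy JUN, with medians of -0.09, 0.23 and 0.04. Atp5d, the delta subunit of the central stalk, was the 1 subunit gene with an unadjusted p under 0.05 for JUN. It read 12.05 and 12.84 in CSP JUN, against 11.52 and 12.16 in CSP -JUN. It read 13.13 and 12.57 in Thy JUN, against 12.56 and 12.26 in Thy -JUN, and 12.54 and 12.79 in SSC JUN, against 12.35 and 12.09 in SSC -JUN. The arms were apart in SSC and Thy. The average difference was 0.50 ± 0.21 (95% interval 0.02 to 0.97, unadjusted p = 0.0423, adjusted p = 0.396).

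Atp5e, the epsilon subunit beside it in the stalk, had the largest difference of any subunit gene in CSP. CSP JUN arrays read 11.15 and 11.73, against 10.04 and 10.85 in CSP -JUN, without overlap, a difference of 0.99 ± 0.47 (95% interval -0.05 to 2.04, adjusted p = 0.995). SSC JUN arrays read 11.19 and 12.16, against 11.55 and 12.24 in SSC -JUN, and Thy JUN arrays 10.87 and 11.15, against 11.34 and 10.45 in Thy -JUN, both with overlap. The catalytic subunits differed by less: Atp5b, the beta subunit, differed by 0.09 in CSP, 0.01 in Thy and 0.24 in SSC, and Atp5a1, the alpha subunit, by -0.08, 0.04 and -0.24. Atp5mpl, a small membrane-part subunit, had the lowest p among lower genes of the complex in SSC, with 11.28 and 12.15 in JUN, against 11.94 and 12.66 in -JUN (difference -0.58 ± 0.46, adjusted p = 0.713). Its arms overlapped.

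The c subunit of the ring is made from 3 genes whose mature proteins are the same. Atp5g1 differed by an average of 0.33 and Atp5g2 by 0.36 ± 0.19, while Atp5g3 differed by -0.01. Atp5g2 read 9.43 and 10.22 in CSP JUN, against 9.18 and 9.60 in CSP -JUN, 9.83 and 9.84 in Thy JUN, against 9.60 and 9.51 in Thy -JUN, and 9.97 and 9.61 in SSC JUN, against 9.47 and 9.38 in SSC -JUN. Its arms were apart in SSC and Thy. Atp5g3 lay within 14.10 to 14.30 in all 12 arrays.

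In the comparison of the sorted populations, each with 4 arrays and with the arm as a term, again 0 subunit genes passed. The background was 0.431% of all genes for SSC against CSP, 0.391% for SSC against Thy and 0.991% for CSP against Thy. With each mouse as a fixed block, which leaves mouse 10 without weight, the genes that passed numbered 8 in place of 54, 4 in place of 49 and 125 in place of 124 in these comparisons, and 0 of them were subunit genes. At an unadjusted p under 0.05 there were 2, 11 and 0 subunit genes of 77, where all genes gave 6.51%, 17.7% and 12%. Here too the unadjusted counts changed with the fit. For 70, 66 and 73 of the 77 genes the 95% interval lay within -1 and 1.

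Of 77 subunit genes, 64 were higher in SSC than in CSP, with a median of 0.17, where 42.2% of all genes were higher and their median was -0.05. Against Thy 51 were higher in SSC with a median of 0.10, where 42.3% of all genes were and their median was -0.09. Between CSP and Thy 33 were higher in CSP, with a median of -0.02, against 45.4% and -0.04. All 4 SSC arrays lay above all 4 Thy arrays for 4 subunit genes, where this held for 2.41% of all genes, and below for 0, where 5.18% did. In SSC against CSP the 4 arrays of each overlapped for every subunit gene, where 2.2% of all genes lay wholly above and 1.86% wholly below. CSP lay wholly above Thy for 2 subunit genes, Atp5j and Atp5md, and wholly below for 0, where all genes gave 1.82% and 4.29%. The SSC -JUN arrays are those with the low control values given above, and their part in the SSC comparisons was not tested.

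The direction of the SSC medians depended on the arrays with a date in the title. With that date as a term in the fit, a choice made after seeing the data, the median of the 77 genes was -0.03 for SSC against CSP and -0.07 for SSC against Thy, in place of 0.17 and 0.10. Among the 9 arrays without such a date, where SSC JUN replicate 1 is the only SSC array, it was -0.03 and -0.09. Beyond that array, SSC and the date cannot be told apart. Markers of other cell types also differed. Of the Schwann cell genes, Mbp and Sox10 rose in SSC relative to CSP, by 4.47 and 2.80 (adjusted p = 0.00339 and 0.00368). The fat cell hormone gene Adipoq was higher in SSC than in Thy, by 2.42 (adjusted p = 0.0296). Against CSP it stood at 1.76 ± 0.39 (adjusted p = 0.100). Of the 4 adipocyte markers measured, 4 were higher in SSC than in Thy (median 0.64). Only 2 of the 4 were higher in SSC than in CSP (median -0.0045). Neutrophil markers were lower in SSC for 4 of 4 against both CSP (median -0.79) and Thy (-1.11). Chondrocyte markers were higher in SSC for 0 of 9 against CSP (median -0.48) and for 9 of 9 against Thy (1.20). Their part in the subunit values was not tested.

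**Figure D3:**
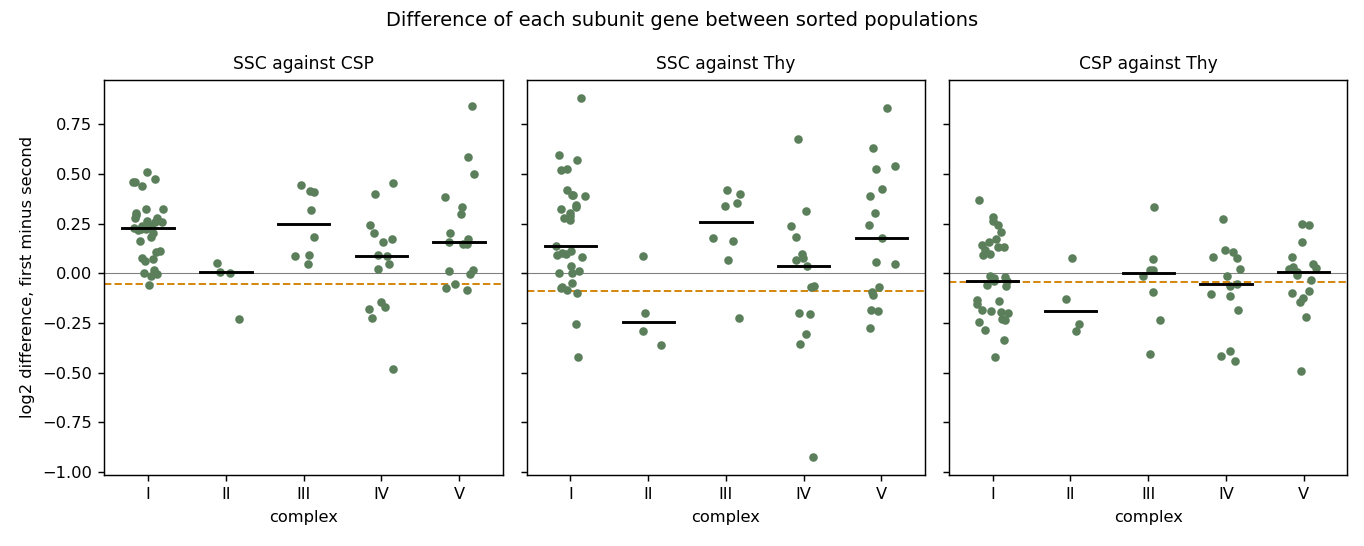
Log2 difference between populations, first named minus second, for each tested subunit gene (points), by complex; black bars give the median of a complex, the dashed line the median of all 12516 genes and the grey line 0. The medians of complexes I, III, IV and V lie above 0 and above the all-gene median in both SSC comparisons, while the median of complex II is 0.00 against CSP and -0.24 against Thy; with the title date as a term the medians over all subunit genes are -0.03 and -0.07.

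Counts by complex were not tested against each other. Against CSP, SSC was higher for 30 of 33 genes of complex I, 3 of 4 of complex II, 8 of 8 of complex III, 10 of 15 of complex IV and 13 of 17 of complex V. Against Thy it was higher for 24 of 33, 1 of 4, 7 of 8, 8 of 15 and 11 of 17. Medians and means had opposite signs for complex IV against Thy (0.04 and -0.03) and for complex II against CSP (0.00 and -0.04). Ndufa4 had the lowest p against Thy. It was named as a complex I subunit and its protein is now placed with complex IV, and it is counted here under its name. It read 11.003, 12.004, 11.76 and 12.30 in the SSC arrays (JUN 1, JUN 2, -JUN 1, -JUN 3), against 10.18, 11.38, 11.04 and 10.93 in the Thy arrays (JUN 1, JUN 2, -JUN 1, -JUN 2). The lowest SSC array, JUN replicate 1, lay within the range of Thy. The difference was 0.88 ± 0.30 (95% interval 0.22 to 1.54, adjusted p = 0.183), and it passed only when arrays were weighted by their quality, at 0.85 ± 0.22 (SE) and adjusted p = 0.0469. In CSP it read 11.29, 11.46, 11.03 and 11.24.

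Ndufa1, an X-linked membrane-arm subunit, read 12.97, 13.15, 13.11 and 13.44 in SSC, against 12.43, 12.81, 12.75 and 12.60 in Thy, and it was one of the 4 genes whose arrays did not overlap. The difference was 0.52 ± 0.18 (adjusted p = 0.191). Ndufa6, an accessory subunit of the LYR protein family, read 10.01, 10.16, 10.25 and 10.59 in SSC, against 9.39, 9.92, 9.81 and 9.61 in Thy, also without overlap, at 0.57 ± 0.22 (adjusted p = 0.224). Against CSP it differed by 0.48 ± 0.22 (adjusted p = 0.773). Ndufv1 lay the other way, with 13.00, 12.87, 12.72 and 12.20 in SSC, against 13.44, 13.16, 13.07 and 12.79 in Thy, at -0.42 ± 0.20 (adjusted p = 0.307). CSP stood below Thy for the same gene, by -0.42 ± 0.20 (adjusted p = 0.438).

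Sdha read 12.42, 11.85, 11.91 and 11.72 in SSC, against 12.14, 12.55, 12.22 and 12.44 in Thy, a difference of -0.36 ± 0.20 (adjusted p = 0.351). Its differences were -0.23 for SSC against CSP and -0.13 for CSP against Thy. Sdhc differed by -0.29 in SSC against Thy and in CSP against Thy and by 0.00 in SSC against CSP. In complex III, Uqcrq, a small subunit near cytochrome b, read 12.90, 13.34, 12.93 and 13.00 in SSC, against 12.55, 12.97, 12.20 and 12.65 in CSP, a difference of 0.45 ± 0.21 (adjusted p = 0.771), with 1 CSP array inside the SSC range. Uqcrb differed by 0.42 ± 0.23 for SSC against Thy, and Uqcrc1 by -0.40 ± 0.22 for CSP against Thy (adjusted p = 0.482).

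Atp5l, subunit g of the ATP synthase membrane part, read 10.70, 11.08, 10.99 and 11.59 in SSC, against 10.21, 10.50, 10.52 and 10.60 in Thy, without overlap. The difference was 0.63 ± 0.23 (adjusted p = 0.207). In CSP it read 10.29, 10.90, 10.16 and 10.67, and SSC against CSP gave 0.58 ± 0.23 (adjusted p = 0.702). Atp5e was higher in SSC by 0.84 ± 0.35 against CSP and 0.83 ± 0.35 against Thy (adjusted p = 0.715 and 0.249). Atp5j, coupling factor 6 in the stalk, was the 1 other gene of this complex whose SSC and Thy arrays did not overlap, with 12.84, 13.17, 13.04 and 13.10 in SSC, against 12.35, 12.75, 12.71 and 12.78 in Thy (0.39 ± 0.17, adjusted p = 0.265). In complex IV, Cox6c read 13.12, 13.44, 13.40 and 13.96 in SSC, against 12.16, 13.16, 13.03 and 12.87 in Thy, at 0.68 ± 0.24 (adjusted p = 0.191), with the highest Thy array just above the lowest SSC array. Thy JUN replicate 1 was the lowest of the 12 arrays for Ndufa4, Ndufa1, Ndufa6, Atp5j and Cox6c, which enlarges their differences from SSC. For Ndufv1 and Cox4i2, which lay lower in SSC, the same array was the highest of the 12. Atp5d was the gene of lowest p in CSP against Thy, at -0.49 ± 0.23 (adjusted p = 0.431).

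Several complex IV subunits come in a widely expressed form and a form restricted to certain tissues. Cox4i2, known from lung and from oxygen-sensing cells, varied most between arrays. It read 9.85, 8.14, 8.76 and 8.09 in SSC, against 10.41, 9.31, 9.13 and 9.67 in Thy, a difference of -0.92 ± 0.41 (95% interval -1.83 to -0.02, unadjusted p = 0.0460, adjusted p = 0.274), with SSC JUN replicate 1 inside the Thy range. CSP arrays read 9.57, 8.89, 8.51 and 9.79. In SSC and CSP its highest values were in the arrays high in chondrocyte markers: SSC JUN replicate 1, CSP JUN replicate 1 and CSP -JUN replicate 2. The Thy arrays were low in these markers and yet read 9.13 to 10.41. The part of the markers in its values was not tested. Its partner Cox4i1 differed by -0.07 between SSC and Thy. For JUN, Cox4i2 differed by 0.57 ± 0.63 in SSC, 0.08 in CSP and 0.46 in Thy.

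Cox6a2, Cox7a1 and Cox8b are the forms of heart, skeletal muscle or brown fat. Cox6a2 read 8.58 and 8.50 in CSP JUN, against 7.97 and 8.21 in CSP -JUN, without overlap, at 0.45 ± 0.28 (adjusted p = 0.995). Cox7a1 read 8.16 and 8.43 in Thy JUN, against 7.48 and 8.14 in Thy -JUN, at 0.49 ± 0.47, and 7.31 and 8.80 in SSC JUN, against 7.88 and 8.39 in SSC -JUN. Cox8b read 9.13 and 8.40 in Thy JUN, against 8.68 and 8.19 in Thy -JUN. Of the 11 muscle markers 8 passed the filter: Acta1, skeletal muscle actin, lay between 9.40 and 11.92 and Ckm, muscle creatine kinase, between 8.58 and 10.65, while Myog was above the array's median in 0 arrays and Myh3 and Pvalb in 1 each. The brown fat markers Ucp1 and Cidea lay between 6.19 and 7.89 and between 5.67 and 7.84 and did not pass the filter. Dio2, a deiodinase gene also active in brown fat, passed it through 5 arrays, lay between 5.66 and 8.85 and differed by 1.64 ± 0.46 in CSP against Thy (adjusted p = 0.157). Cox6b2 and Cox8c are forms of the testis. Cox6b2 read 9.10 and 10.00 in CSP JUN, against 9.03 and 9.17 in CSP -JUN, and differed by -0.39 ± 0.21 in CSP against Thy (adjusted p = 0.475). Cox8c differed by -0.22 ± 0.18 in SSC against CSP and by 0.10 for JUN on average. The average JUN differences of the widely expressed partners were 0.09 for Cox6a1, 0.21 for Cox6b1, -0.05 for Cox7a2 and 0.13 for Cox8a.

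**Figure D4:**
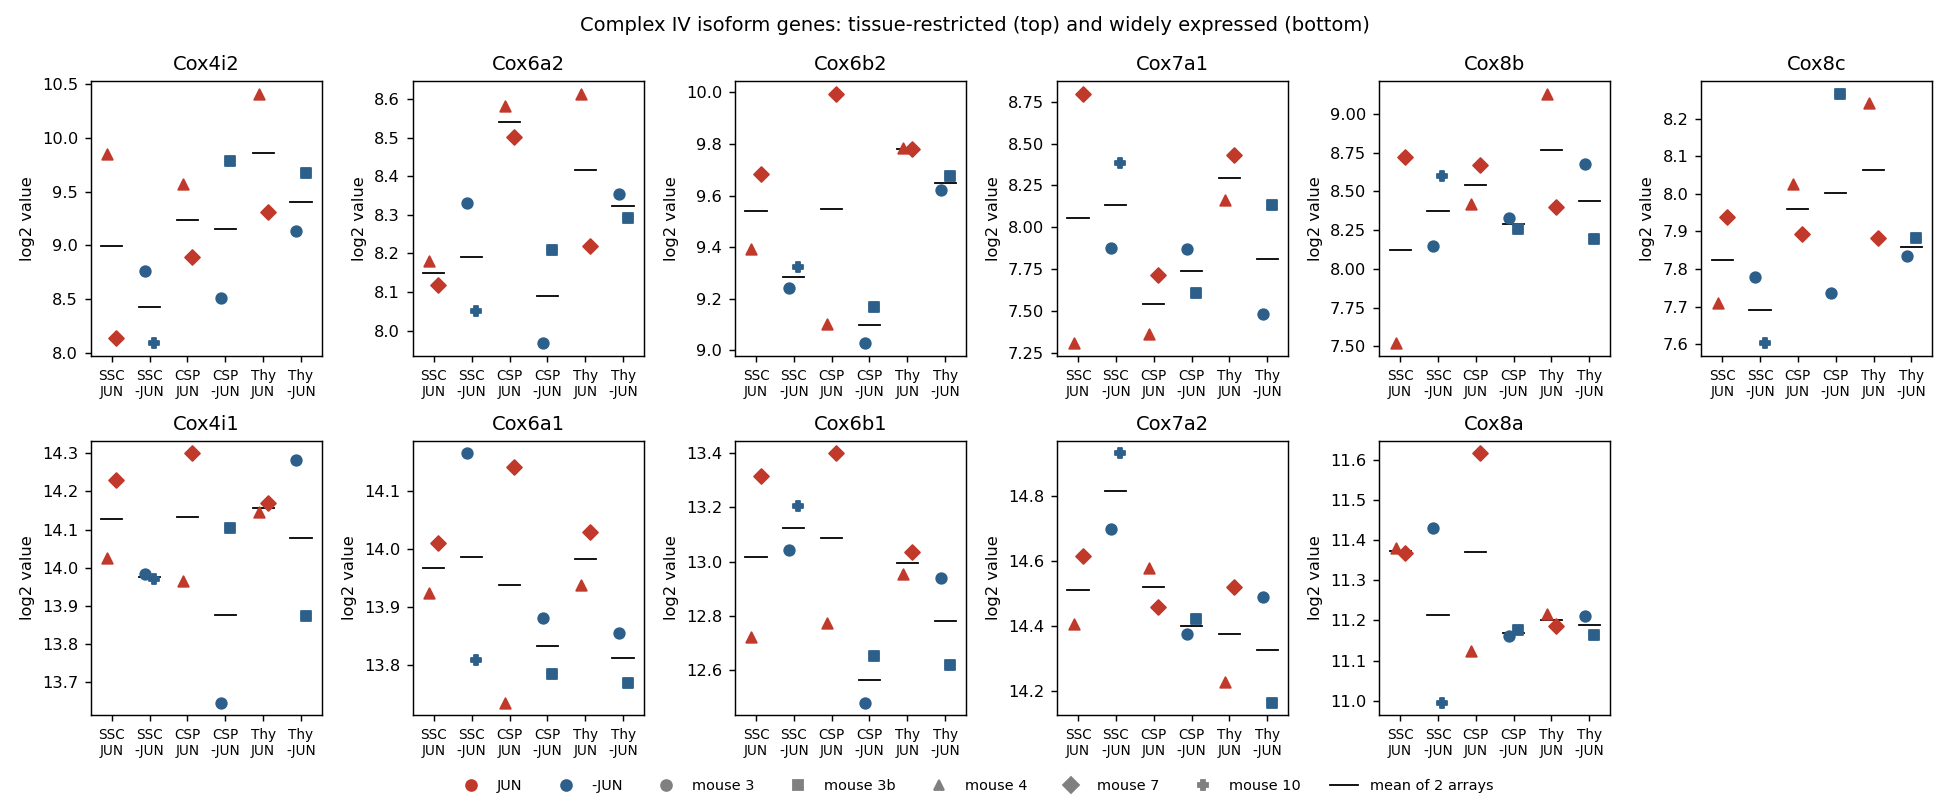
Log2 values of 11 isoform genes of complex IV in the 12 arrays (vertical axes, which differ between panels and do not start at 0), by population and arm; symbols give the mouse and bars the mean of 2 arrays. The restricted forms are in the upper row and the widely expressed ones in the lower; Cox4i2 covers 8.09 to 10.41 and Cox4i1 13.65 to 14.30.

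Subunit genes also differed together between arrays from different mice of the same arm. Mouse 7 was above mouse 4, within the JUN arm, for 63 of 77 genes in SSC, 65 in CSP and 52 in Thy, with medians of 0.25, 0.31 and 0.12. All genes gave 43.2%, 56.7% and 51.0% in these pairs of arrays and medians of -0.10, 0.09 and 0.02. For 36 of the 77, or 46.8%, mouse 7 was the higher in all 3 populations, which held for 12.3% of all genes. In the -JUN arm mouse 3b was above mouse 3 for 59 of 77 genes in CSP and for 10 of 77 in Thy. The medians were 0.21 and -0.28, so arrays with these 2 mouse labels stood in opposite order in the 2 populations. Mouse 10 was above mouse 3 for 50 of 77 in SSC. All genes gave 49.4%, 48.6% and 39.4% in these 3 pairs. With 2 mice in each such pair there is no test of a difference between animals. The paired arrays also differed in chondrocyte markers. These averaged 13.21 in mouse 4 and 10.07 in mouse 7 in SSC, and 12.81 and 10.41 in CSP. In Thy they averaged 9.90 and 9.53, and in CSP -JUN 9.74 in mouse 3 and 12.78 in mouse 3b. The SSC title of mouse 7 carries the date and that of mouse 4 does not. Animal, cell content and, in SSC, the date cannot be told apart.

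The widest gaps of single genes between mice 7 and 4 were in genes named above. Ndufs1 stood 1.92 higher in mouse 7 in Thy, and Cox4i2 differed by -1.72 in SSC (mouse 7 minus mouse 4). The mean over the complex II genes was higher in mouse 7 in each population, by the values given for that complex, and so was that of complexes I, III and V. Complex IV was the exception, with 11.46 in mouse 4 and 11.42 in mouse 7 in Thy.

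**Figure D5:**
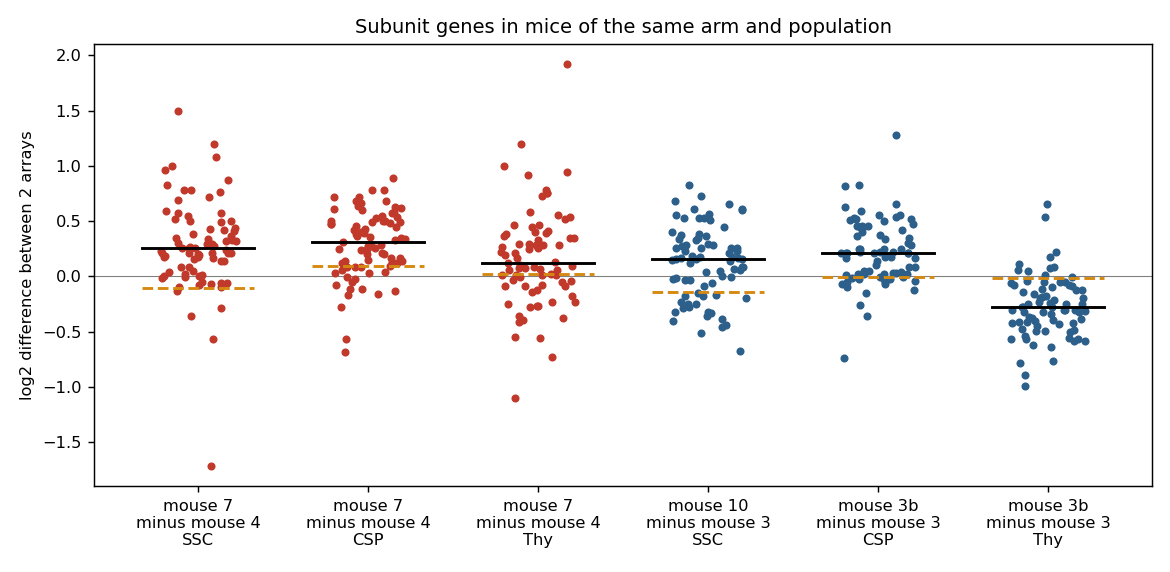
Log2 difference between the 2 arrays of a group for each tested subunit gene (points), named below each column; red columns are JUN groups and blue columns -JUN groups, black bars give the median of the subunit genes and dashed orange bars that of all 12516 genes. The medians of the subunit genes are 0.25, 0.31 and 0.12 for mouse 7 minus mouse 4, and 0.21 and -0.28 for mouse 3b minus mouse 3 in CSP and Thy.

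The gap between the arrays of mice 4 and 7 bears on the JUN values. Leaving out mouse 4 gave a median average difference of 0.24 over the 77 genes and leaving out mouse 7 gave -0.01, against 0.13 with both. Within CSP the median was 0.44 without JUN replicate 1, 0.13 without JUN replicate 2, 0.15 without -JUN replicate 1 and 0.38 without -JUN replicate 2, so its sign stayed. Within Thy the median was -0.08 without -JUN replicate 2 and 0.20 without -JUN replicate 1. Within SSC it was 0.13 without JUN replicate 1 and -0.13 without JUN replicate 2, and it was 0.02 without -JUN replicate 3. Without JUN replicate 1, all SSC arrays left carry the date in their title.

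Subunit genes varied less than most and varied together. The median standard deviation within groups was 0.26 for the 77 genes and 0.40 for all genes. Of all genes, 81.0% had a larger one than the median subunit gene. The subunit genes were also brighter, with array means of 11.86 to 12.41, against 9.78 to 9.96 for all genes tested. Their spread was not compared with that of other genes of like level. Across the 12 arrays, deviations from the group mean of a pair of subunit genes correlated with a median of 0.47, and those of a subunit gene with a gene of no complex with a median of 0.00. Since each group has 2 arrays, these rest on 6 independent deviations, which all pairs share, and are a description. The median was 0.58 among complex I genes, 0.56 in complex III and 0.42 in complex V, but 0.20 in complex IV and 0.19 in complex II. Of the 77, 58 correlated above 0.5 with the mean of the others and 5 below 0. Glycolysis genes correlated among themselves at 0.58 and with the subunit genes at -0.07. Assembly factors correlated among themselves at 0.10 and with the subunit genes at 0.22, and the citric acid cycle genes at 0.22 and 0.09.

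Promoters of genes that vary together were searched for motifs of factors known to act on respiratory genes (NRF1, GABP of the ETS family, YY1 and the estrogen-related receptors, ERR) and for the AP-1 motif bound by JUN dimers. RefSeq promoters of build GRCm38.p6, from 250 bases before to 50 after a start, were at hand for 66 of the 80 genes, with 71 starts. One stretch per motif is shown, with the match in capitals, to show that match in its setting. Each is read on the strand of the gene and lies wholly upstream of the start, which not all matches do. A match is a description and not a site of binding.
Cox6a1, NRF1 motif, chr5:115349067-115349165, minus strand: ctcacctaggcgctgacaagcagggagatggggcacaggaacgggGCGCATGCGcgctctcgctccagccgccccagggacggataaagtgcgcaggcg
Uqcr11, ETS motif, chr10:80406835-80406932, minus strand: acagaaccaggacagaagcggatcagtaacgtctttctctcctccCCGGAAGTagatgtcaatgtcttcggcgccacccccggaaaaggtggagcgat
Atp5j, YY1 motif, chr16:84835011-84835109, minus strand: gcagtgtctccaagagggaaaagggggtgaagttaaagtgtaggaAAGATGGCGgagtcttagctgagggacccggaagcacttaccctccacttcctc
Atp5g3, ERR motif, chr2:73911327-73911423, minus strand: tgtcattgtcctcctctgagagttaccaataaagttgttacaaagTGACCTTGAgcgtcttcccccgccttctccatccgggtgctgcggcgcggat
Ndufa5, AP-1 motif, chr6:24527581-24527677, minus strand: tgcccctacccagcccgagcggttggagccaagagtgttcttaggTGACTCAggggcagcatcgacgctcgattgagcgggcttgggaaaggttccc

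The letters searched on both strands were GCGCATGCG for NRF1, CCGGAAGT for ETS, AAGATGGCG for YY1, TCAAGGTCA for ERR and TGANTCA for AP-1, where N is any base; no motif contains another. The ERR match shown reads on the opposite strand. NRF1 letters were in 7 of the 71 promoters (9.86%), against 1.75% of all 32851 promoters, and belonged to Ndufa8, Uqcrc1, Uqcr11, Cox6a1, Atp5g2, Atp5k and Atp5l. YY1 letters were in 6 (8.45%, against 1.40%), of Ndufa9, Ndufc1, Ndufs4, Ndufs7, Atp5j and Atp5j2. Of these only the Atp5j match lay before the start, and the others began 22 to 35 bases after it. ETS letters were in 5 (7.04%, against 3.89%), of Ndufs3, Uqcrh, Uqcr11, Cox8a and Atp5h, and ERR letters in 2 (2.82%, against 0.423%), of Sdhd and Atp5g3. AP-1 letters were in 7 (9.86%, against 7.81%), of Ndufa5, Ndufa9, Ndufa13, Uqcrh, Cox7c, Atp5c1 and Atp5g1. Of the 6 tested genes with AP-1 letters, JUN differences ran from -0.19 to 0.19 in SSC, from 0.16 to 0.47 in CSP and from -0.10 to 0.37 in Thy, and 0 passed. The 5 genes with ETS letters ran from 0.07 to 0.18 in SSC, from 0.18 to 0.49 in CSP and from 0.01 to 0.34 in Thy. For the 7 with NRF1 letters the ranges were -0.40 to 0.36, 0.11 to 0.58 and -0.21 to 0.37 in the same order. For the 6 with YY1 letters they were -0.60 to 0.16, 0.04 to 0.43 and -0.19 to 0.24, and for the 2 with ERR letters -0.02 to 0.05, -0.01 to 0.19 and -0.01 to 0.37. No difference between these sets was tested.

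Other genes of energy metabolism were given by lists, and 0 genes of any of these lists passed in any comparison. For JUN on average, values were higher for 28 of 42 assembly factors (median 0.12), 9 of 17 citric acid cycle genes (0.04), 16 of 18 glycolysis and lactate genes (0.37), 12 of 19 carriers and subunits with other names (0.09), 7 of 15 regulators of mitochondrial biogenesis (-0.18) and 7 of 12 uncoupling and antioxidant genes (0.04). All genes gave 57.1% and 0.07 there, and the subunit genes 52 of 77 and 0.13. In SSC the glycolysis list had 15 of 18 higher and a median of 0.61, which was 0.29 without JUN replicate 1. That array was also the highest in chondrocyte markers, as given above, of which 9 of 9 were higher in SSC JUN with a median of 1.496; their part was not tested. Its gene of lowest p, Aldoc, the brain form of aldolase, read 10.62 and 7.36 in SSC JUN, against 6.75 and 6.42 in SSC -JUN, so 1 array, from mouse 4, carried most of the difference of 2.41 ± 0.84 (adjusted p = 0.690). Cox10, which makes the heme of complex IV, had the lowest p among assembly factors for JUN, at an average of 0.70 ± 0.22 (adjusted p = 0.396). Among regulators, Tfb1m, a mitochondrial ribosomal RNA methyltransferase, stood at -0.51 ± 0.17, and among antioxidant genes Gpx4, a peroxidase of lipid peroxides, at 0.53 ± 0.20 (adjusted p = 0.396 for both).

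Between populations, Nubpl, an assembly factor that delivers iron-sulfur clusters to complex I, read 9.85, 9.67, 9.96 and 10.09 in SSC, against 8.95, 9.23, 8.76 and 8.85 in CSP, without overlap. The difference was 0.94 ± 0.21 (adjusted p = 0.124), and against Thy it was 0.87 ± 0.21 (adjusted p = 0.101). Cox11, which delivers copper to complex IV, differed by 0.89 ± 0.24 in SSC against Thy (adjusted p = 0.127) and by 0.77 ± 0.24 in CSP against Thy (adjusted p = 0.221). It read 8.57, 9.56, 9.73 and 10.05 in Thy, where JUN replicate 1 was far the lowest. In SSC it read 10.14 to 10.56 and in CSP 10.17 to 10.46. Esrra, which encodes the receptor ERR alpha, lay lower in SSC than in Thy by -0.62 ± 0.18 (adjusted p = 0.143), while Ppargc1a, a coactivator that drives mitochondrial biogenesis, lay higher in SSC than in CSP by 0.77 ± 0.31 (adjusted p = 0.702), with values from 6.08 to 7.88 that passed the array's median in 2 of 12 arrays. Ndufab1, the acyl carrier protein that is also a complex I subunit, was higher in SSC than in Thy by 0.71 ± 0.22 (adjusted p = 0.155). In the citric acid cycle Suclg2, a subunit of succinyl-CoA ligase, was lower in SSC than in CSP by -1.18 ± 0.31 (adjusted p = 0.214). In CSP against Thy, Pdk1, which inhibits pyruvate dehydrogenase, stood at 1.12 ± 0.26 (adjusted p = 0.0715). Of the subunits encoded by mitochondrial DNA, 1 was measured, ND5 of complex I, whose average JUN difference was -0.12 ± 0.28 and whose values lay between 12.53 and 13.83.

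The probe set chosen mattered for the sign. Among the 43 subunit genes with several probe sets past the filter, all probe sets of a gene gave the same sign for 23 genes for JUN in SSC, 34 in CSP and 33 in Thy. This held for 30, 28 and 26 genes in SSC against CSP, SSC against Thy and CSP against Thy.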

How the data were processed

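The deposited table holds log2 values per probe set of a mouse expression array, which the authors derived by RMA, as the submitters' processing notes say; the labels name no software version. RMA brings arrays to a common distribution, which hides a change of total RNA and compresses differences between dim probe sets. Arrays give no depth, so their number limits precision. Of 45101 probe sets, 64 controls were left out, and 34945 of the rest carried 1 gene symbol in the platform annotation. The filter and the choice of probe set are given in the text above.

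Two-sided tests used lmFit and eBayes of limma 3.58.1 under R 4.3.3 on 12516 genes, with Benjamini-Hochberg adjustment and a threshold of 0.05. JUN effects came from a model of 6 group means over 12 arrays (6 residual degrees of freedom) and population effects from population and arm as terms (8 residual degrees of freedom). Errors of differences are standard errors of the fit. The code was tested on simulated data. The members and lists were chosen with earlier results of these data known. The rule for naming was, per comparison and complex, the gene of lowest p in each direction, the complex IV isoforms, the c subunit and Sdh genes, and from each list the genes of lowest p; not all of these are printed. Ndufs4, the motif-bearing genes, genes named for not overlapping and single markers were chosen after their values were seen.

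Arrays of the same mouse pair across populations by animal, and deviations of such arrays from their group mean correlated between -0.21 and 0.43. Alternatives were other filters, probe set rules, scalings, variance settings, blocks by mouse, and leaving out each array or mouse; the date in 3 titles was added after seeing the data.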

Additional observations from a re-analysis of the deposited data

Results flagged for a closer look

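In 8 of 144 sets of 4 arrays looked at, 1 array of a population stood far from the other 3 by Dixon's criterion, and chance flags about 5% of such sets. CSP JUN replicate 2, from mouse 7, was the high one in 4 of them: Atp5b at 13.67, Cox6b2 at 10.00, Cox8a at 11.62 and Sdhb at 12.96. Thy JUN replicate 1, from mouse 4, was high for Cox8c at 8.24 and low for Ndufs1 at 9.39. Thy JUN replicate 2 was high for the mean over complex II at 12.46, and SSC -JUN replicate 3 was low for Cox8a at 10.99.

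For Cox7a2 both JUN arrays lay below both -JUN arrays in SSC (difference -0.30) and above them in CSP (difference 0.12). For Ndufa6 the same held, with -0.33 in SSC and 0.51 in CSP. Of all genes, 15.7% lay wholly lower in JUN in SSC and 19.3% wholly higher in CSP. The share of all genes that did both was not counted. The difference between these 2 populations alone was not tested, and the interaction over all 3 did not pass for either gene (limma, adjusted p = 0.9997 for each).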

How the results depend on the processing

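Of 29 listed alternatives, 28 left the count of subunit genes past the threshold at 0 in every comparison they bear on; weighting arrays by quality gave 1 in SSC against Thy, Ndufa4. The median JUN difference of the subunit genes in CSP lay between 0.13 and 0.44 when 1 array was left out and was 0.44 without mouse 4. In Thy it lay between -0.0842 and 0.20 and was -0.0842 without mouse 3b or -JUN replicate 2. In SSC the median took the other sign under 6 alternatives and in CSP against Thy under 4. In SSC against CSP and in SSC against Thy it kept its sign under those of the 29 that compare populations. There it lay at 0.09 to 0.25 and 0.04 to 0.21. Under 2 alternatives added after seeing the data it did not: with the title date as a term it was -0.0328 and -0.0704, and over arrays without such a date -0.0320 and -0.0886. Over all genes 23 and 10 passed with the date as a term, 17 and 1 over those arrays, and 0 subunit genes passed. Over all genes, 54 passed in SSC against CSP, with 7 without mouse 7 and 156 with array weights as the extremes. In SSC against Thy 49 passed, with 3 without mouse 3, 572 with array weights and 304 without SSC JUN replicate 1. In CSP against Thy 124 passed, with 17 without mouse 3 and 321 with array weights. For JUN 0 passed, but without mouse 7 there were 282 in SSC, 175 in Thy and 495 on average, without mouse 4 there were 2 in CSP, and without SSC JUN replicate 2 there was 1 in SSC. Without mouse 7 or mouse 4 each population keeps 1 JUN array, all of 1 mouse, whose spread is then taken from the -JUN groups. The JUN and -JUN arrays of CSP and Thy share only a number, not an animal: same-numbered deviations correlated at -0.10 and -0.18, and with this replicate block 0 subunit genes passed. With the mouse as a random block (consensus correlation 0.00 for populations and -0.06 for JUN) 0 subunit genes passed, and the block changed no other call. With 2 arrays a group, differences under about 1 on the log2 scale were not detectable for many genes.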
